A study of Mus musculus with 16 samples.

Results

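The radial glia genes examined here are *Pax6*, *Hes1*, *Hes5*, *Nes*, *Vim*, *Fabp7*, *Slc1a3*, *Sox9*, *Prom1* and *Hopx*, 10 of the 51912 genes listed in the count tables. They were taken by symbol, as genes known to be expressed by apical radial glia of the ventricular zone. The rule uses no measured value, but the list was drawn up with earlier results of these data known. All 10 symbols matched 1 listed gene each. Their levels were compared over E15.5 (embryonic day 15.5) cerebral cortices of 15 mice, namely 7 ctrl, 4 cKO and 4 dKO, measured by UMI RNA-seq in 16 libraries. In the cKO, *Knl1*, a kinetochore gene that the labels call Casc5, was deleted conditionally by Cre under the human GFAP promoter (hGFAP-Cre), and in the dKO the same Cre removed *Trp53*, the gene for p53, as well. The labels give ctrl mice 2, 6, S1, S3 and T3 as *Knl1* wild type and T4 and T5 as heterozygotes. The labels do not say which ctrl mice carried Cre. The cKO mice were 5, 7, S2 and F3, and the dKO mice were T2, T8, F1 and F7. Mouse S2 has 2 libraries, which were summed. The mice came from 4 litters, and the labels place 2, 6, 5 and 7 in litter 1, S1, S3 and S2 in litter 2, T2, T3, T4, T5 and T8 in litter 3, and F1, F3 and F7 in litter 4. The labels place all mice of litters 3 and 4 in batch 3, S1 in batch 2 and the other mice in batch 1. Every dKO mouse is therefore in batch 3. Each library is whole cortex, so it holds neurons and other cells besides the radial glia in which hGFAP-Cre acts.

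Radial glia are the apical stem cells of the embryonic cortex. Their cell bodies line the ventricle, their processes span the cortical wall, and they divide to renew themselves and to give rise to intermediate progenitors and neurons. Notch signalling between neighbouring cells keeps radial glia undifferentiated through the transcriptional repressors *Hes1* and *Hes5*. *Pax6* encodes the paired-box transcription factor of dorsal cortical progenitors, *Sox9* an SRY-box factor of neural stem cells, and *Hopx* a homeodomain protein linked to outer radial glia in larger brains. *Nes* and *Vim* encode the intermediate filaments nestin and vimentin. *Fabp7* encodes a brain fatty acid binding protein, *Slc1a3* the glutamate transporter GLAST, and *Prom1* the membrane protein prominin-1 (CD133) of apical protrusions. In bulk cortex, fewer radial glia and less of an RNA in each of them cannot be told apart.

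The libraries differed in depth with genotype. Total counts were 399832 to 3266227 in ctrl, 4178461 to 8800987 in cKO and 552186 to 5396803 in dKO mice, so that every cKO mouse was deeper than every ctrl mouse. A count of 3, taken as the floor of detection, corresponded to between 0.341 and 7.5 CPM (counts normalised to library size), and this floor covers counting error only. The floor uses total counts without the scaling factors (TMM) applied to the levels. In T3, for example, 3 *Hes1* counts gave a level of 7.00 CPM against a floor of 7.5 CPM. *Knl1* itself differed by −0.13 ± 0.18 (log2 fold change ± SE) between cKO and ctrl, with an FDR of 1 (Benjamini–Hochberg adjusted p from edgeR's likelihood ratio test), and *Trp53* by −0.36 ± 0.23 between dKO and ctrl, also with an FDR of 1. These tables count reads over the whole gene, and a sum over a gene checks a conditional deletion only as far as the deleted exons contribute to it. The counts appear to cover gene bodies with their introns and to respect strand. Of 394 protein-coding genes that lie within another gene on the same strand, 99.2% had no count in any library, against 27.4% of 789 that lie within a gene on the opposite strand and 27.8% of 12146 that overlap no gene. *Sox2*, a stem cell gene of radial glia that lies within *Sox2ot*, was at 0 in every library and could not be read. None of the 10 members lies within another gene on its own strand, but *Prom1* shares 20.9% and *Slc1a3* 3.87% of the gene body with a predicted gene on the same strand, where a read cannot be assigned. Because the counted length of a gene is not known, levels are compared between mice and not between genes.

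None of the 10 radial glia genes passed an FDR of 0.05 in cKO versus ctrl, although all 10 fitted fold changes were negative. Those of *Hes5* and *Fabp7* were near 0, at −0.02 each, and the mean levels of these 2 genes were higher in cKO, at 3.91 against 3.63 CPM for *Hes5* and 55.2 against 53.0 CPM for *Fabp7*. The median log2 fold change of the members was −0.33, whereas the 9178 genes with a mean of at least 10 CPM had a median of 0.04, with 40.0% of them lower in cKO. Over all listed genes, 83 (0.16%) were called at FDR < 0.05 in this comparison. Only 27394 of the 51912 listed genes had a count in any library, and the rest, which could not be called, lower every such share. No member was called by edgeR's quasi-likelihood F test or by DESeq2 either. At an unadjusted p below 0.05, 5 of the 10 members (*Pax6*, *Vim*, *Slc1a3*, *Prom1* and *Hopx*) were lower in cKO, and none was higher. The share of genes lower at that p was 3.67% among the genes with a mean of at least 10 CPM, a level that *Hes1*, *Hes5* and *Hopx* did not reach. The ranges of ctrl and cKO mice overlapped for all 10 members, while 1.34% of the genes with at least 10 CPM had ranges that did not.

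**Figure D1:**
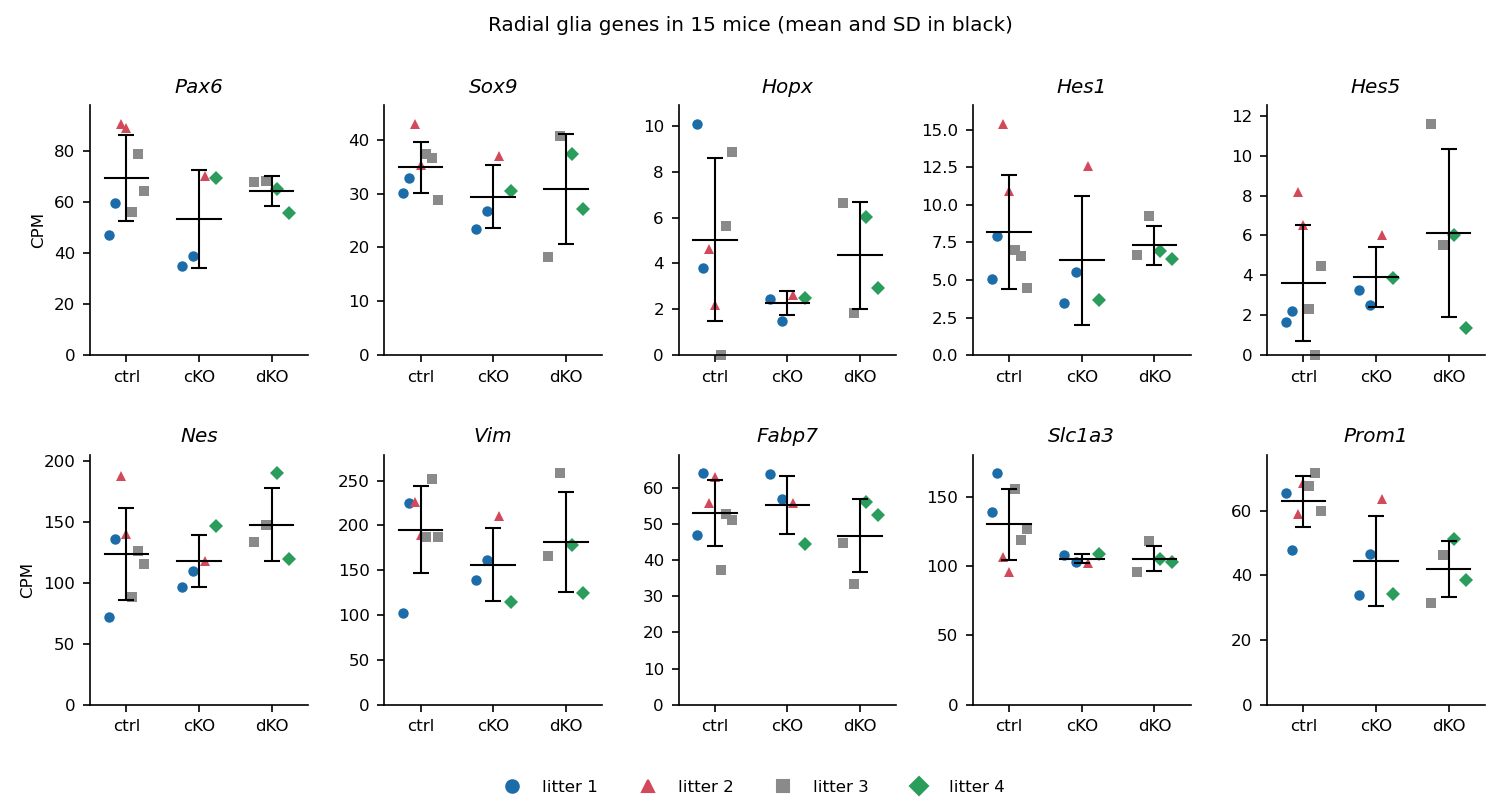
CPM of each radial glia gene (y axis, from 0) in the 7 ctrl, 4 cKO and 4 dKO mice, with 1 point per mouse, symbols by litter and the mean and SD in black. The groups overlap in every panel, and the litter 2 mice (red triangles) lie at or near the top of their group for *Pax6*, *Hes1* and *Hes5*.

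*Pax6* (chromosome 2, 105668900 to 105697364, + strand, GRCm38) lay between 47.0 and 90.7 CPM in ctrl mice, with a median of 64.5 CPM. The cKO mice 5, 7, S2 and F3 were at 34.9, 38.8, 70.4 and 69.3 CPM, and the dKO mice T2, T8, F1 and F7 at 68.0, 68.4, 65.2 and 55.7 CPM. The 2 lowest mice of the series were the cKO mice of litter 1, and the 2 highest were the ctrl mice of litter 2, S3 and S1. The log2 fold change of cKO over ctrl was −0.42 ± 0.21 (unadjusted p = 0.04385, FDR = 0.992 by edgeR). *Pax6* was the only one of the 10 members for which every cKO mouse lay below every ctrl littermate in both litters that hold the 2 genotypes. In litter 1 the cKO mice, at 34.9 and 38.8 CPM, were below ctrl mice at 47.0 and 59.5 CPM, and in litter 2 the cKO mouse at 70.4 CPM was below ctrl mice at 89.0 and 90.7 CPM. That arrangement held for 4.15% of the genes with at least 10 CPM. With litter as a covariate, the *Pax6* fold change was −0.49 ± 0.15, with an unadjusted p of 0.0007514 and an FDR of 0.205.

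*Sox9* (chromosome 11, 112782224 to 112787760, + strand) ranged from 28.9 to 43.0 CPM in ctrl mice, with a median of 35.3 CPM. Mice 5, 7, S2 and F3 of the cKO were at 23.4, 26.8, 37.0 and 30.5 CPM, and mice T2, T8, F1 and F7 of the dKO were at 18.2, 40.7, 37.4 and 27.2 CPM. The dKO mice ran from the lowest value of the series, resting on 11 counts, to near the top of the ctrl range. The log2 fold change was −0.28 ± 0.17 in cKO (FDR = 1) and −0.16 ± 0.20 in dKO (FDR = 1).

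*Hopx* (chromosome 5, 77086988 to 77115121, − strand) had only 134 counts over the 15 mice. Its level in ctrl mice was 0 to 10.1 CPM with a median of 4.61 CPM, and the ctrl values rested on 0 to 12 counts. The cKO mice 5, 7, S2 and F3 were at 2.44, 1.5, 2.62 and 2.5 CPM from 6 to 23 counts, within a narrower range than the ctrl or dKO mice. The dKO mice T2, T8, F1 and F7 were at 6.63, 1.85, 6.04 and 2.91 CPM. The lowest ctrl mouse, T3, had 0 of 399832 counts, which allows a level of up to 7.5 CPM before scaling. The fold change was the largest of the 10 members in cKO, at −0.94 ± 0.37 (unadjusted p = 0.01013, FDR = 0.581), and the exact permutation test over mice gave p = 0.4333.

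Notch effectors *Hes1* (chromosome 16, 30064384 to 30067796, + strand) and *Hes5* (chromosome 4, 154960923 to 154962371, + strand) were low, with 326 and 175 counts over all mice. *Hes1* lay between 4.45 and 15.4 CPM in ctrl mice, with a median of 7.00 CPM. In cKO mice 5, 7, S2 and F3 it was at 3.45, 5.50, 12.6 and 3.64 CPM, and in dKO mice T2, T8, F1 and F7 at 6.63, 9.24, 6.94 and 6.40 CPM. Mice 5, 7 and F3 were thus in the lower part of the ctrl range or below it, and S2 was above all but 1 ctrl mouse. *Hes5* lay between 0 and 8.20 CPM in ctrl, with a median of 2.33 CPM. Its level in cKO mice 5, 7, S2 and F3 was 3.25, 2.5, 6.03 and 3.86 CPM, and in dKO mice T2, T8, F1 and F7 it was 11.6, 5.54, 6.04 and 1.36 CPM. The ctrl mouse at 0, T4, had 1021502 counts in all, which allows a *Hes5* level of up to 2.94 CPM before scaling. Neither gene differed between cKO and ctrl beyond its error, with log2 fold changes of −0.47 (95% interval −1.22 to 0.28) for *Hes1* and −0.02 (−0.89 to 0.86) for *Hes5*. These intervals leave room for changes in either direction for both genes.

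The Hes5 promoter is shown because *Hes5* is a direct Notch target and moved with litter, as described below. The RefSeq window runs from 250 bases before the transcription start to 50 after it (GRCm38.p6, chr4:154960673-154960972, + strand), and the capitals mark the core motif of RBPJ, the DNA-binding partner of Notch, TGGGAA, and its reverse complement TTCCCA.
Hes5: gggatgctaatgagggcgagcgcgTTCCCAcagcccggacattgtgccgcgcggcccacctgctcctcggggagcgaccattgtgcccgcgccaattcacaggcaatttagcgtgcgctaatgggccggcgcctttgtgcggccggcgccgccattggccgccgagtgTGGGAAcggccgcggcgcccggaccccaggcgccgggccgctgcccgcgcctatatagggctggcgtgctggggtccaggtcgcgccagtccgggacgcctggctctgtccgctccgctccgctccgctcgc
The reverse complement begins 226 bases and the forward motif 82 bases before the start. At least 1 match on either strand was held by 25.6% of the 32851 promoter windows in the table, and 2 or more by 3.79%. Windows were found for 8 of the 10 members, and *Fabp7* and *Prom1* each held 1 match in 1 window. *Hes1* and *Sox9* had no window and were not searched. A match is a description of the letters and not evidence of binding.

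Intermediate filament genes were measured with more counts. *Nes* (chromosome 3, 87971078 to 87980451, + strand) lay between 72.2 and 188 CPM in ctrl mice, with a median of 126 CPM. The cKO mice 5, 7, S2 and F3 were at 96.9, 110, 118 and 147 CPM, all within the ctrl range. In dKO mice T2, T8, F1 and F7 it was at 134, 148, 190 and 120 CPM, the highest being F1. The log2 fold changes were −0.13 (95% interval −0.47 to 0.22) in cKO and 0.23 (−0.13 to 0.58) in dKO. With litter as a covariate the cKO value was −0.31 ± 0.13 with an unadjusted p of 0.0151 and an FDR of 1.

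*Vim* (chromosome 2, 13573927 to 13582826, + strand) lay between 102 and 252 CPM in ctrl mice, with a median of 189 CPM. It was at 139, 161, 210 and 115 CPM in cKO mice 5, 7, S2 and F3, and at 166, 258, 178 and 125 CPM in dKO mice T2, T8, F1 and F7. The highest mice were T8 of the dKO and T4 of the ctrl group. Vimentin is also made by meningeal fibroblasts, and the summed level of the 6 meningeal genes was 95.2 CPM in T8 and 45.2 CPM in T4, with 98.0 CPM in ctrl mouse T3 and at most 13.4 CPM in the other 12 mice. *Vim* in T3 was at 187 CPM, just below the ctrl median. The part of meningeal RNA in the *Vim* values was not tested. The cKO fold change was −0.35 ± 0.18 (unadjusted p = 0.04679, FDR = 1), and it was −0.15 ± 0.12 with litter as a covariate.

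Of the metabolic and transport genes, *Fabp7* (chromosome 10, 57784881 to 57788450, + strand) varied little between groups. It lay between 37.3 and 63.9 CPM in ctrl mice, with a median of 52.7 CPM. The cKO mice 5, 7, S2 and F3 were at 63.8, 56.8, 55.6 and 44.5 CPM, and the dKO mice T2, T8, F1 and F7 at 44.8, 33.3, 56.1 and 52.4 CPM. The cKO fold change was −0.02 with a 95% interval of −0.31 to 0.27, the dKO fold change −0.19 (−0.53 to 0.15).

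*Slc1a3* (chromosome 15, 8634124 to 8710764, − strand) lay between 96.1 and 167 CPM in ctrl mice, with a median of 127 CPM. The cKO mice 5, 7, S2 and F3 were at 108, 103, 102 and 109 CPM, and the dKO mice T2, T8, F1 and F7 at 96.1, 118, 105 and 103 CPM. Both mutant groups lay in the lower part of the ctrl range, next to the ctrl mice of litter 2, S1 and S3, at 96.1 and 107 CPM. The fold change was −0.31 ± 0.14 in cKO (unadjusted p = 0.03002, FDR = 0.852) and −0.28 ± 0.15 in dKO (unadjusted p = 0.06844, FDR = 1). Within litter 1, the cKO fold change was −0.57 (FDR = 0.0775), and within litter 2 it was 0.01 (FDR = 1). The test of that difference, the interaction of genotype and litter in 1 model over both litters, gave 0.60 ± 0.25 with an FDR of 1.

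*Prom1* (chromosome 5, 43993620 to 44102032, − strand) had the smallest p of the 10 members in both comparisons with ctrl. It lay between 47.8 and 71.5 CPM in ctrl mice, with a median of 65.5 CPM. The cKO mice 5, 7, S2 and F3 were at 33.9, 46.5, 63.5 and 34.1 CPM, and the dKO mice T2, T8, F1 and F7 at 31.5, 46.2, 51.3 and 38.6 CPM. In each mutant group, 3 mice lay below all 7 ctrl mice, the exceptions being S2 and F1. The log2 fold change was −0.48 ± 0.18 in cKO (unadjusted p = 0.008822, FDR = 0.566) and −0.52 ± 0.17 in dKO (unadjusted p = 0.00294, FDR = 0.799). Without cKO mouse S2, the cKO value was −0.71 and passed the threshold (FDR = 0.0082), and *Prom1* was then the only member called. With litter as a covariate, the cKO value was −0.22 ± 0.15 (FDR = 1) and the dKO value −0.73 ± 0.28 (FDR = 1). The 2 comparisons share the 7 ctrl mice.

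In dKO versus ctrl, none of the 10 members was called, against 26 of all listed genes (0.0501%). The median log2 fold change of the members was −0.16, beside 0.01 for the genes with at least 10 CPM. *Hes5* and *Nes* had positive values and the other 8 members negative ones. Only *Prom1* was lower at an unadjusted p below 0.05, as were 2.46% of the genes with at least 10 CPM, and none was higher. With litter as a covariate *Hes5* moved from 0.45 ± 0.59 to 2.27 ± 1.00 (unadjusted p = 0.01191, FDR = 1), and within litter 3 alone it was at 2.18. Litter 3 is the only litter with both ctrl and dKO mice, so both values rest on the same mice. There, ctrl mice T3, T4 and T5 had *Hes5* counts of 1, 0 and 2, all below the floor of 3 counts. The dKO mice T2 and T8 had 7 and 6. Ranges of the 2 groups overlapped for all 10 members, and did not overlap for 0.719% of those genes. No member was called by the quasi-likelihood F test or by DESeq2.

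In cKO versus dKO, again no member was called by any of the 3 tests, beside 27 of all listed genes (0.052%) by the likelihood ratio test. The median log2 fold change of cKO over dKO was −0.16, beside 0.06 for the genes with at least 10 CPM. *Hopx* was the only member lower at an unadjusted p below 0.05, with a value of −0.82 ± 0.41 (unadjusted p = 0.04662, FDR = 1). It rested on 6 to 23 counts in cKO and 2 to 20 counts in dKO mice, and the exact permutation test over mice gave p = 0.2. No member with a mean of at least 10 CPM was lower at that unadjusted threshold, beside 1.06% of the genes at that level. *Nes* was at −0.32 ± 0.18, *Fabp7* at 0.21 ± 0.18 and *Slc1a3* at 0.01 ± 0.13, each with an FDR of 1. All 10 members overlapped between the groups, while 4.12% of the genes with at least 10 CPM did not. In the only litter that holds both genotypes, litter 4, there were 1 cKO and 2 dKO mice. Of the cKO mice, only F3 shares batch 3 with the dKO mice, so genotype and batch are largely confounded here. With batch as a covariate, *Pax6*, *Nes*, *Fabp7* and *Prom1* changed sign, to 0.14, 0.004, −0.11 and −0.31.

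**Figure D2:**
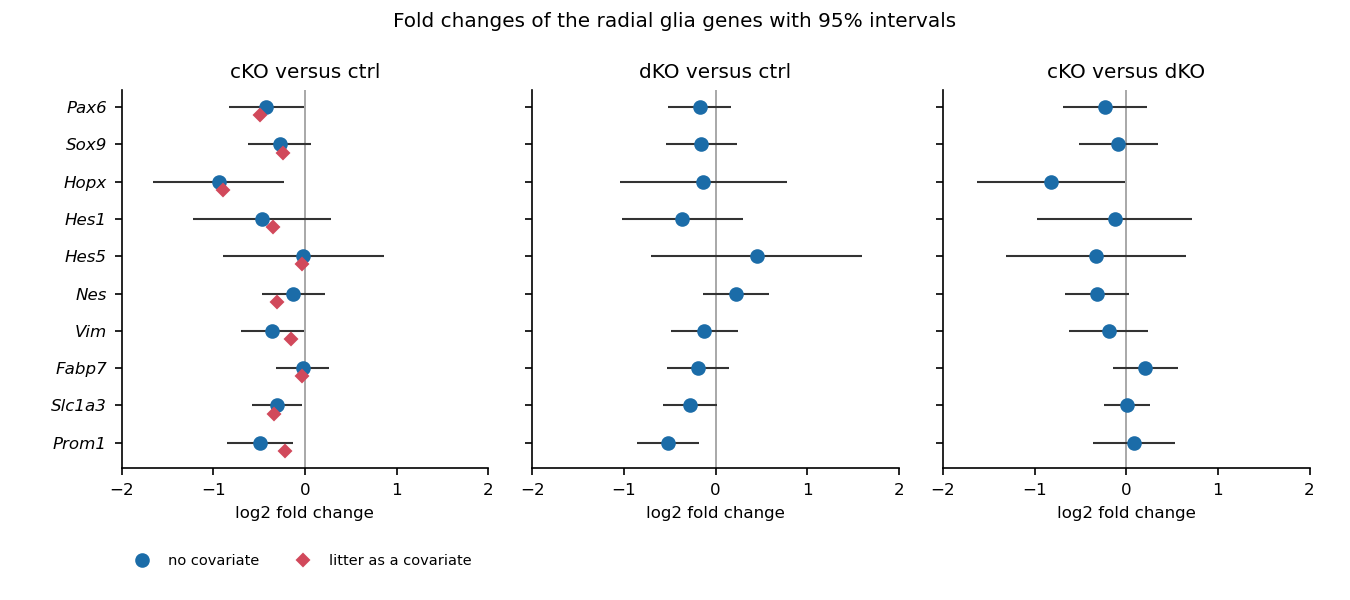
Log2 fold change (x axis) of each radial glia gene in the 3 comparisons, with bars for 95% intervals of the fit without covariates and red diamonds for cKO versus ctrl with litter as a covariate. In cKO versus ctrl, *Hes5* and *Fabp7* lie near 0 and the other 8 values between −0.94 and −0.13, and the intervals of *Hes1*, *Hes5* and *Hopx* are the widest.

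Exact 2-sided permutation tests over mice were made for each member and comparison on mean log2 CPM. *Prom1* had the smallest p values, 0.01818 in cKO versus ctrl and 0.006061 in dKO versus ctrl by this exact test, and the smallest value after adjustment over the 30 tests was 0.182. With 330 arrangements, the smallest p possible was 0.00303 for the comparisons with ctrl, and with 70 arrangements 0.0286 for cKO versus dKO. A single member at either of these p values would not have passed after adjustment over 30 tests, so the adjusted values say little about any 1 member. The mean log2 CPM of the 10 members in each mouse, given as a description, was 4.78 to 5.54 in ctrl, 4.71 to 5.27 in cKO and 4.80 to 5.31 in dKO mice. The highest mice of the ctrl and cKO groups, S3 and S2, both came from litter 2.

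Some radial glia genes differed between litters 1 and 2, in calls that were lost without mouse S2. This comparison was made after the member values had been seen, among the 4 mice of litter 1 (2, 6, 5 and 7) and the 3 mice of litter 2 (S1, S3 and S2), with genotype as a term in the model. *Pax6*, *Hes1* and *Hes5* were higher in litter 2 by log2 fold changes of 0.82 ± 0.14 (FDR = 1.254e-06), 1.23 ± 0.28 (FDR = 0.00121) and 1.32 ± 0.35 (FDR = 0.0122), by edgeR's likelihood ratio test. They are 3 of the 10 members, beside 297 of all listed genes (0.572%) called higher, a share that counts genes without a count in any library. The 4 mice of litter 1 were at 34.9 to 59.5 CPM for *Pax6*, 3.45 to 7.91 CPM for *Hes1* and 1.68 to 3.25 CPM for *Hes5*. The 3 mice of litter 2 were at 70.4 to 90.7 CPM, 10.9 to 15.4 CPM and 6.03 to 8.20 CPM, so these ranges did not overlap. *Sox9* did not overlap either, at 23.4 to 32.9 CPM in litter 1 and 35.3 to 43.0 CPM in litter 2, with a fold change of 0.45 ± 0.16 (FDR = 0.220). Of the genes with at least 10 CPM, a set without *Hes1* and *Hes5*, 8.57% were higher in every mouse of litter 2 than in every mouse of litter 1.

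Other members were less clear. *Prom1* (0.49 ± 0.15, FDR = 0.0935), *Nes* (0.40 ± 0.14, FDR = 0.231) and *Vim* (0.37 ± 0.15, FDR = 0.424) had positive values that missed the threshold, although all 3 were called by the quasi-likelihood F test. In all, 7 of the 10 members were higher at an unadjusted p below 0.05. Of the 7 members with a mean of at least 10 CPM, 5 were higher at that p, beside 9.94% of the genes at that level. *Slc1a3* went the other way, at −0.34 ± 0.13 (FDR = 0.378). *Fabp7* (−0.04, 95% interval −0.31 to 0.23) and *Hopx* (−0.05, −0.85 to 0.75) were near 0. Fitted values were thus positive for 7 of the 10 members and negative for 3, and differences between members were not tested.

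Mice S3, S2, 2, 6, 5 and 7 belong to batch 1 of the labels and S1 to batch 2. Within batch 1, *Pax6* was at 0.86 (FDR = 4.864e-06), *Hes1* at 1.36 (FDR = 0.000288) and *Hes5* at 1.34 (FDR = 0.0216). The direction was the same among the ctrl mice alone, 2 against 2, with 0.69 for *Pax6*, 0.85 for *Hes1* and 1.77 for *Hes5*, none called. Without cKO mouse S2, *Pax6* was at 0.68 (FDR = 0.0742), and *Hes1* and *Hes5* were not called, so that of the 10 members only *Slc1a3* passed, at −0.63 (FDR = 0.0390). *Hes5* was also not called without mouse 6, 7 or S3 (FDR = 0.187, 0.0994 and 0.0997), nor *Hes1* without mouse 5 (FDR = 0.0761). There are 2 litters in this comparison, and the p values describe the spread between mice of these 2 litters only.

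**Figure D3:**
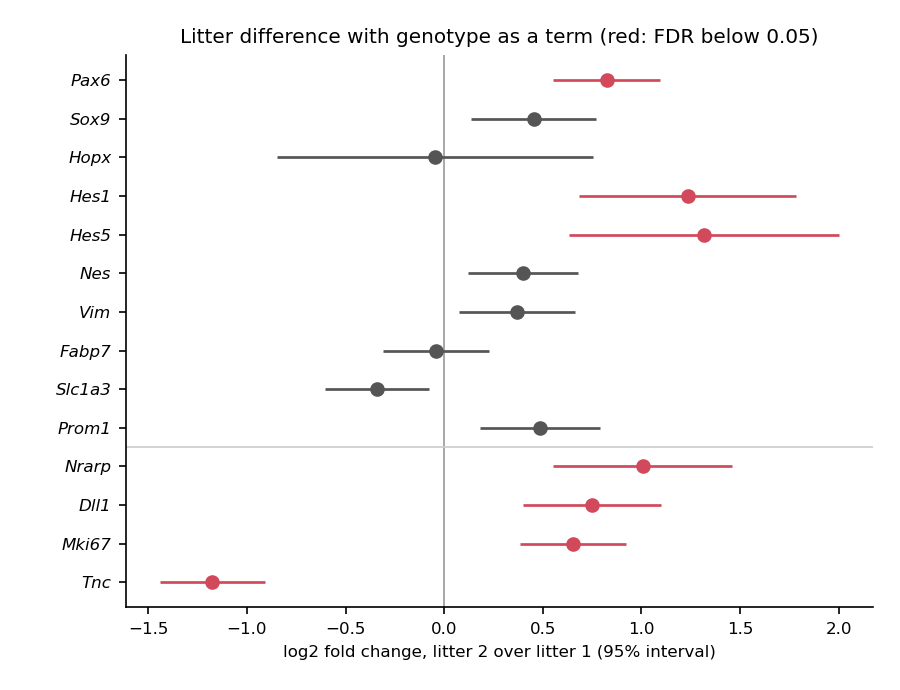
Log2 fold change of litter 2 over litter 1 (x axis, bars for 95% intervals) for the 10 members above the line and 4 other listed genes, picked after their values were seen, below it. Red marks an FDR below 0.05, reached by *Pax6*, *Hes1*, *Hes5* and the 4 genes below the line.

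Genes of related lists moved between the litters too. Of 13 Notch pathway genes, 3 were called higher in litter 2 and none lower. They were *Nrarp*, a Notch target that restrains the pathway (1.01 ± 0.23, FDR = 0.00191), the ligand *Dll1* (0.75 ± 0.18, FDR = 0.00377) and the receptor *Notch1* (0.55 ± 0.13, FDR = 0.00423). Among 18 other apical progenitor genes, 6 were higher and 1 was lower. The higher ones were *Sox3* (1.20 ± 0.26), *Nr2e1* (0.87 ± 0.17) and *Gli3* (0.68 ± 0.13), transcription factors of cortical progenitors, next to *Id4*, *Ddah1* and the *Notch1* already named (0.41 to 0.65), and the lower one was *Tnc*, which encodes the matrix protein tenascin C (−1.18 ± 0.14, FDR = 4.762e-14). Of 12 proliferation genes, 9 were higher, namely *Top2a* (0.68 ± 0.12), *Mki67* (0.65 ± 0.14), *Cdk1*, *Ccna2*, *Aurkb*, *Bub1*, *Mcm5*, *Rrm2* and *Tyms*, and none was lower. Of 10 apical junction and polarity genes, *Ctnna1*, which encodes alpha-catenin, was called higher (0.48 ± 0.12, FDR = 0.00857). *Mki67* was at 149 to 247 CPM in litter 1 and 274 to 364 CPM in litter 2.

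Some markers of other cell types and of tissue next to the cortex differed between these litters as well. Of 9 ganglionic eminence genes, all had positive values, 7 were at an unadjusted p below 0.05 and 1, *Nkx2-1* (1.80 ± 0.35), was called higher in litter 2. The choroid plexus gene *Ttr* was called lower (−4.76 ± 0.92), with 168 counts in ctrl mouse 6 of litter 1 and none in the ctrl mice 2, S1 and S3. *Clic6* of the choroid plexus list was called lower too (−2.88 ± 0.96). So were *Sparcl1* of the astrocyte list (−0.80 ± 0.17) and the microglial gene *Csf1r* (−1.42 ± 0.37). Values went the other way, higher in litter 2, for 1 of 4 choroid plexus, 2 of 9 astrocyte and 3 of 7 microglia genes. Of all 51912 listed genes, 339 were called lower. The part of dissection, of the stage of the embryos or of any other difference between the litters in the member values was not tested.

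**Figure D4:**
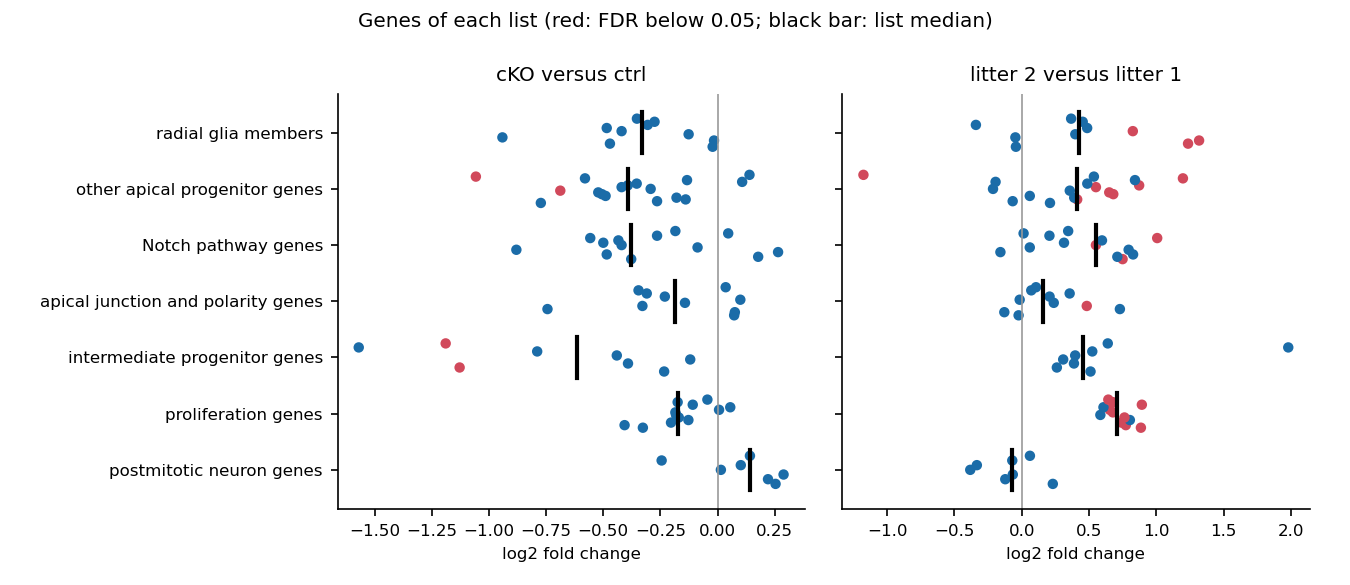
Log2 fold changes (x axis) of the genes in 7 lists in cKO versus ctrl (left) and in litter 2 versus litter 1 (right), with 1 point per gene, black bars for list medians and red for an FDR below 0.05. In cKO versus ctrl the called genes are *Tfap2c*, *Lhx2*, *Eomes* and *Neurog2*, all lower, and on the right 9 of 12 proliferation genes are red.

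In cKO versus ctrl, the called genes near the radial glia lineage were outside the 10 members. Among 18 other apical progenitor genes, of which *Sox2* was at 0, 2 were called lower and none higher. These were *Tfap2c*, which encodes the AP-2γ transcription factor of basal progenitor production (−1.06 ± 0.22, FDR = 0.00462), and *Lhx2*, a LIM-homeodomain regulator of cortical fate (−0.69 ± 0.17, FDR = 0.0337). Levels of *Tfap2c* were 16.8 to 31.1 CPM in ctrl and 8.33 to 14.1 CPM in cKO mice, without overlap. Of 8 intermediate progenitor genes, 2 were called lower and none higher. *Eomes*, the T-box gene that marks these cells, was at 51.4 to 98.1 CPM in ctrl, 28.2 to 48.9 CPM in cKO and 40.2 to 67.5 CPM in dKO mice (cKO versus ctrl −1.13 ± 0.18, FDR = 5.057e-06). *Neurog2*, a proneural gene, was at −1.19 ± 0.25 (FDR = 0.00564). The study already listed *Tfap2c*, *Eomes* and *Neurog2* as lower in the cKO of these data, and the lists were drawn up with earlier results known. The difference between the called genes and the members was not tested.

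Some genes of other cells and neighbouring tissue also differed in cKO versus ctrl. Of 9 ganglionic eminence genes, 6 were higher at an unadjusted p below 0.05. Of all 51912 listed genes, 2441 were at that p in either direction. *Gad1*, an enzyme of GABA synthesis in interneurons, was the 1 ganglionic eminence gene called (0.56 ± 0.14, FDR = 0.0408). The list median was 0.35, with 8 values positive and 1, *Nkx2-1*, at −0.41 ± 0.49. The 9 genes summed to 401 to 900 CPM in ctrl and 759 to 915 CPM in cKO mice. The choroid plexus gene *Ttr* was called lower (−5.61 ± 1.03, FDR = 0.00652), also in cKO versus dKO (−5.02 ± 0.88). It had no count in ctrl mice 2, S1 and S3 either. Its list of 4 summed to 0.54 to 60.0 CPM in ctrl and 0.91 to 3.25 CPM in cKO mice. The 6 meningeal genes had a median of −1.62, with sums of 1.63 to 98.0 CPM in ctrl and 2.96 to 9.09 CPM in cKO mice, and none was called. The postmitotic neuron genes summed to 4630 to 5170 CPM in ctrl and 5180 to 5810 CPM in cKO mice, so that the lowest cKO mouse and the highest ctrl mouse were nearly level. The largest parts of these sums were *Map2* and *Dcx*, with means of 2190 and 1040 CPM. Of the 7 genes with counts, 6 had positive fold changes and 1, *Rbfox3*, was at −0.25 ± 0.15. *Tubb3*, which lies within a predicted gene on its strand, was at 0 in every library. The part of these differences in the member values was not tested.

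No gene was called in the Notch pathway, apical junction and polarity, proliferation or postmitotic neuron lists in cKO versus ctrl. The medians were −0.38, −0.19, −0.17 and 0.14, beside −0.33 for the members. *Notch2*, a receptor expressed in radial glia, had a value of −0.50 ± 0.15 (unadjusted p = 0.0006634, FDR = 0.174), and *Pard3*, an apical polarity gene, −0.31 ± 0.13 (FDR = 0.789). *Mki67* was at 0.01 ± 0.19 (FDR = 1). In dKO versus ctrl no gene of these lists or of the apical and intermediate progenitor lists was called.

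With litter as a covariate, where litters 1 and 2 hold both ctrl and cKO mice, none of the 10 members was called in cKO versus ctrl, beside 120 of all listed genes (0.231%). At an unadjusted p below 0.05, 4 of the 10 (*Pax6*, *Nes*, *Slc1a3* and *Hopx*) were lower and none was higher. The share of genes lower at that p was 3.6% among the genes with at least 10 CPM, a set without *Hopx*. *Vim* and *Prom1*, which had met that threshold without the covariate, no longer did, and *Nes* newly did.

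RNA of other cell types was uneven between libraries. The 6 myelin genes summed to 493 CPM in ctrl mouse T5, 81.7 CPM in ctrl mouse T3 and 33.9 to 48.9 CPM in the other 13 mice, and the 9 astrocyte genes to 502 CPM in T5 and 231 to 310 CPM elsewhere. The defining astrocyte genes *Gfap* and *Aqp4* had 13 and 24 counts over all 15 mice, and the microglial gene *Aif1* 21. The members in T5 lay within the range of the other ctrl mice for 8 of the 10 genes, with *Hes1* and *Sox9* lower in T5 than in any other ctrl mouse. Without T5, none of the members was called in cKO or dKO versus ctrl.

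Over the 15 mice, the members varied together only in part. Of the 45 pairs, 28 had a positive Pearson correlation of log2 CPM, with a median r of 0.13, and the highest was between *Prom1* and *Sox9* (r = 0.69) and the lowest between *Slc1a3* and *Hes5* (r = −0.42). Among 4017 other genes with a mean of at least 50 CPM, those most like the mean of the members were *Mir9-3hg* (r = 0.88), *G3bp1* (r = 0.83), *Lhx2* (r = 0.83), *Notch2* (r = 0.81) and *Lrrc58* (r = 0.81). These correlations are descriptions over 15 mice that share litters, batches and depth differences. Pairs with *Hes1*, *Hes5* or *Hopx* rest on few counts, 326, 175 and 134 over all mice. The part of counting error in the low values of r was not tested. *Lhx2* and *Notch2* are also in the lists above.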

How the data were processed

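The authors made the Click-seq libraries from 600 ng of total RNA of each E15.5 cortex after ribosomal RNA depletion. Per the labels and the study's methods, they used bcl2fastq 2.17, cutadapt 1.13, STAR 2.5.2a (mm10/GRCm38), UMI-tools 0.5.3 and HTSeq 0.6.1p1 in intersection-nonempty mode. The annotation release and the strand setting are not given in the sources used here. The files the authors deposited hold raw counts of UMI-collapsed reads for every gene, not normalized, and the 5 summary lines of each file were left out. Removing PCR copies by molecular identifier keeps amplification from inflating a count, but shallow libraries still give coarse values for low genes.

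Identifiers were joined to GENCODE M21, where 51719 of the 51912 listed genes matched. Libraries S2 and S2b, whose counts differed with a chi-square of 1.14 per degree of freedom (3.56 to 27.4 for other pairs of cKO libraries), were summed as 1 mouse. Groups, litters and batches come from the labels. Each comparison was fitted on its own 2 groups with edgeR 4.0.16 (R 4.3.3, TMM, estimateDisp, glmFit, glmLRT) over all 51912 genes, with no filter and no covariate, and FDR is Benjamini–Hochberg adjusted. The study's methods name edgeR, likelihood ratio tests and this adjustment, and do not mention a filter or covariate. CPM values use TMM factors over the 15 mice, log2 CPM a prior count of 2, and 95% intervals 1.96 SE. The alternatives were DESeq2 1.42.0, the quasi-likelihood F test of edgeR, RLE size factors, TMM on expressed protein-coding genes, filterByExpr, all 3 groups in one fit, batch, sex or litter as a covariate, subsets of mice, library S2 alone and leaving out each mouse. Gene overlaps used bedtools 2.31.1.

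The members, lists and tests were chosen with earlier results of these data known. Named were all members, *Knl1*, *Trp53*, *Eomes*, list genes at FDR below 0.05 in a comparison described, further list genes among the 2 with the smallest p in a direction, and the 5 genes most correlated with the members. *Sox2*, *Tubb3*, *Gfap*, *Aqp4*, *Aif1* and *Mki67* in cKO versus ctrl were named after their values were seen. 1 gene of a comparison list is not reported here. Mice are the replicates. The litter comparison, its alternatives and the fits within litters 1 and 2 were added after the data had been seen.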

Additional observations from a re-analysis of the deposited data

Results flagged for a closer look

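The 7 ctrl, 4 cKO and 4 dKO mice were each checked for a mouse that stood far from the rest of its group, over the 10 radial glia genes and their mean, in 33 groups of values, and 1 was found. *Hopx* in cKO mouse 7 was at 1.5 CPM, from 6 counts, while the other cKO mice lay between 2.44 and 2.62 CPM, and the gap was 0.839 of the whole range of the group. By chance, about 1 in 20 such groups would be marked in this way. No member's difference between cKO and ctrl was shown to depend on the litter at FDR < 0.05.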

How the results depend on the processing

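No radial glia gene was called in any of the 3 genotype comparisons under any alternative that left out no single mouse. Leaving out 1 mouse gave 0 to 1 members in cKO versus ctrl (*Prom1*, without S2) and 0 in the others. Median fold changes of the members over those fits were −0.478 to −0.265 for cKO and −0.283 to −0.065 for dKO against ctrl and −0.369 to 0.001 for cKO versus dKO, and the first was −0.081 within litter 2. For litter 2 versus litter 1, 6 members were called by the quasi-likelihood F test, 0 among ctrl mice alone, and 1 to 4 when 1 mouse was left out. Of 775 refitted member values, 684 kept direction and side of the threshold and 74 changed sign. Without a mouse, the cKO versus ctrl values ran from −0.33 to 0.40 for *Hes5*, −0.254 to 0.001 for *Nes* and −0.091 to 0.06 for *Fabp7*. For dKO versus ctrl they ran from −0.35 to 0.034 for *Vim* and −0.49 to 0.12 for *Hopx*. For cKO versus dKO they ran from −0.76 to 0.088 for *Hes1*, −0.74 to 0.024 for *Hes5*, −0.39 to 0.024 for *Vim*, −0.031 to 0.052 for *Slc1a3*, −0.26 to 0.02 for *Sox9* and −0.18 to 0.20 for *Prom1*. For litter 2 versus litter 1 they ran from −0.094 to 0.015 for *Fabp7* and −0.59 to 0.19 for *Hopx*. Other sign changes in cKO versus ctrl were *Hes5* at 0.005 with all groups in one fit, 0.19 with batch, 0.12 with sex and 0.45 in litter 1, *Fabp7* at 0.037 in batch 1, 0.032 in litter 1 and 0.006 with library S2 alone, and, in litter 2, *Vim* at 0.021, *Slc1a3* at 0.013 and *Prom1* at 0.006. In dKO versus ctrl they were *Hes1* at 0.21 with batch, 0.42 with litter, 0.20 in batch 3 and 0.42 in litter 3, *Fabp7* at 0.005 with batch, *Vim* at 0.027 with litter and 0.034 in litter 3, *Hopx* at 0.064 with wild-type ctrl only and *Pax6* at 0.006 in litter 3. In cKO versus dKO, *Slc1a3* was at −0.038 by DESeq2, −0.042 with RLE, −0.051 with TMM on expressed genes, −0.048 with filterByExpr and −0.009 with all groups. *Pax6*, *Nes*, *Fabp7* and *Prom1* were at 0.14, 0.004, −0.11 and −0.31 with batch and at 0.15, 0.005, −0.094 and −0.32 in batch 3. *Pax6*, *Hes5*, *Fabp7* and *Prom1* were at 0.22, 0.18, −0.27 and −0.37 with litter and at 0.19, 0.11, −0.30 and −0.40 in litter 4. In litter 2 versus litter 1, *Hopx* was at 0.19 in batch 1 and *Fabp7* at 0.018 among ctrl mice. The cause of these changes was not tested. Counts of all genes called ranged from 13 to 373, 3 to 113 and 1 to 184 in the genotype comparisons and from 135 to 831 between litters, against 83, 26, 27 and 636. The mean of the members differed by −0.24, −0.04 and −0.19 between the groups, and by −0.20, 0.01 and −0.21 with a prior count of 0.5. Depth limits *Hes1*, *Hes5* and *Hopx* most, with 134 to 326 counts over all mice. The groups share no replicate numbers, so no fit paired mice by number, and littermates entered as litter covariate and within-litter fits.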
